A study of Mus musculus with 9 samples.

Results

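Airn, Kcnq1ot1, Peg13, Peg3os and Snhg14 are long noncoding RNA genes of imprinted domains that are expressed from the chromosome inherited from the father. They were taken by name from a table of transcript levels in mouse pancreatic islets, in which they are 5 of 10706 names, and together they hold 32 deposited transcripts. FPKM, fragment counts scaled to transcript length and to the size of the library, were added up over the transcripts of a name. All 5 names reached the mean of 0.5 FPKM set for testing, as did 2377 names in all. RefSeq classes 1768 of the 2377 as long noncoding RNA and 579 as protein coding. Ranks and shares over tested names therefore do not hold for all genes of the islet. Transcripts carry no identifier, so whether a line under a coding name is its messenger RNA is not known. Islets, the hormone-producing cell clusters of the pancreas, came from female mice that were virgin (5 libraries) or pregnant (GD14.5, for the gestational day, 4 libraries). The labels give no strain, age, genotype or treatment beyond this, nor how many animals went into a library, so p-values cover the spread from library to library, which may be technical. The question the design implies is whether these RNAs differ between pregnant and virgin islets.

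Imprinted genes are read from only 1 of the parental copies, which carry different DNA methylation set in the germ line. In many imprinted domains the unmethylated paternal control region starts a long noncoding RNA, and transcription or spreading of that RNA keeps neighbouring genes silent on the same chromosome. Airn runs antisense through Igf2r, the gene of the receptor that clears insulin-like growth factor II. Kcnq1ot1 starts inside the potassium channel gene Kcnq1 and silences Cdkn1c, which encodes the cell cycle inhibitor p57. Peg13 lies within the trafficking gene Trappc9, and Peg3os overlaps Peg3, which encodes a zinc finger protein. Snhg14 is the host transcript of the small nucleolar RNAs of the Prader-Willi region, and its far end runs antisense to the ubiquitin ligase gene Ube3a in neurons. The data do not tell the parental alleles apart, so imprinting itself was not measured.

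On GRCm38.p6, with coordinates counted from 1, RefSeq places Airn on chromosome 17 (12741311 to 12859884), overlapping the coding genes Igf2r and Mas1. Kcnq1ot1 lies on chromosome 7 (143213111 to 143296547) within Kcnq1, Peg13 on chromosome 15 (72805602 to 72810324) within Trappc9, and Peg3os on chromosome 7 (6706760 to 6707624) within Peg3. Snhg14 covers 1177441 bases of chromosome 7 (59272737 to 60450177) and overlaps Ube3a, Snrpn and Snurf together with 206 genes that RefSeq classes as snoRNA. None of these overlapping coding genes is analysed here. Whether the counting used strand is not stated in the labels, so reads of an unspliced overlapping gene and reads of the noncoding RNA cannot be told apart. GENCODE puts Snrpn and Snurf on the same strand as Snhg14, and Trappc9 on that of Peg13. Strand could not part reads of these genes in any case. The levels of Snhg14 and Peg13 and their transcript shares carry that limit.

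Start regions of 3 of the 5 genes are printed because imprints are carried by methylated CG pairs, in many domains at the start of such an RNA. Whether these 3 windows lie in a control region was not tested. The Snhg14 window is also the RefSeq start of Snrpn, at 60450177, while Snurf starts at 60005199, so its letters need not be those of the imprint. Each runs from 250 bases before the RefSeq start to 50 bases after it, 5′ to 3′ on the gene's strand, with each CG in capitals. They are chr17:12741061-12741360 (plus strand), chr7:143296498-143296797 (minus strand) and chr7:60450128-60450427 (minus strand), from RefSeq on GRCm38.p6. The last 40 bases of the Airn and Kcnq1ot1 windows were each found in 1 GENCODE transcript on the gene's strand. Those of the Snhg14 window were found in 0. A transcript that starts slightly further in would also give 0, so GENCODE support for this start was not settled.
Airn: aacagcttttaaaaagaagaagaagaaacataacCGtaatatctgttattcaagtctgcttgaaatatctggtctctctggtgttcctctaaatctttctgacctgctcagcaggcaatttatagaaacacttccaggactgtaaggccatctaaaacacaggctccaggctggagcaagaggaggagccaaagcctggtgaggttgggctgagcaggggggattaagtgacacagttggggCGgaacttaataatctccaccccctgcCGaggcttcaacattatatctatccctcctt
Kcnq1ot1: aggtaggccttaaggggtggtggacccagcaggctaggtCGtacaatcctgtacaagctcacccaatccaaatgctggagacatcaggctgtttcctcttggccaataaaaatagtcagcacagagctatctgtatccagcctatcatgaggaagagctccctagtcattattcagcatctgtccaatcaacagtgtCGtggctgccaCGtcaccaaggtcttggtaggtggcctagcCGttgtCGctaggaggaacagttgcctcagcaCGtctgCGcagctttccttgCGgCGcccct
Snhg14: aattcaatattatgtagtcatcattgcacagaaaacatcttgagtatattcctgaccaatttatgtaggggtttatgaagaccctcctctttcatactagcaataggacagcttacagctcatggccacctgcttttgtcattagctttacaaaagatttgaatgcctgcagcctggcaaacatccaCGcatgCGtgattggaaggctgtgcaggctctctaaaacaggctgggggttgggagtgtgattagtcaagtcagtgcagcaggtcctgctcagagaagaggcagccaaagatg
Kcnq1ot1 held 9 CG pairs in this window, and 45.8% of 32851 RefSeq start windows of the same length held at least as many. Airn held 3 and Snhg14 held 2, against a median of 7 over all windows. The core letters of the ZFP57 site, TGCCGC, were searched on both strands because ZFP57 binds methylated imprinting control regions; they were in none of the 3 windows and in 11.6% of all windows. The core of the YY1 site, GCCAT, was found at position −104 from the start of Airn, on its strand, and at position −129 from that of Snhg14, on the opposite strand. It was in 40.5% of all windows, so these matches are a description of the letters only. Peg13 and Peg3os are named only.

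The libraries differed in scale, which touches every level that follows. Summed over all names the table held 5415.3 to 20530.6 FPKM per library, and the median over the 2377 tested names, called the library median below, ranged from 0.60 to 2.54 FPKM. Virgin 4, virgin 5 and GD14.5 replicate 4 stood apart at library medians of 2.19, 2.54 and 1.68 FPKM, against 0.60 to 1.23 in the other 6. What lies behind these differences was not tested, and the depth of the libraries is unknown. Of 43 cell type markers 3 have a line in the table and none of them is a hormone or other endocrine gene, so the islet label was not checked against its defining genes. The stroma marker Col3a1 was at 16.2 FPKM in virgin 2, 8.46 in GD14.5 replicate 2 and 8.38 in GD14.5 replicate 4 and listed at 0 in the other 6 libraries, while Col1a1 was listed at 0 in all 9 and the duct marker Sox9 reached 0.01 FPKM in 1. Its part in the results was not tested.

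Peg13 had the highest FPKM of the 5 RNAs. It stood at 12.7, 22.8, 12.9, 42.4 and 60.6 FPKM in virgin libraries 1 to 5 and at 16.3, 18.1, 19.9 and 45.8 FPKM in GD14.5 libraries 1 to 4. The groups overlapped, and the high values in each group were those of the libraries with high medians. Means were 30.3 ± 20.8 and 25.0 ± 13.9 FPKM in the virgin and GD14.5 groups (SD, n = 5 and 4). The mean over all 9 libraries ranks Peg13 number 32 of the 2377 tested names, most of which are noncoding.

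Airn, the silencer of the Igf2r domain, followed at 4.10, 9.36, 8.37, 16.3 and 19.9 FPKM in the virgin libraries and 4.2, 6.71, 8.36 and 12.5 FPKM at GD14.5. Snhg14, the snoRNA host, stood at 3.41, 6.91, 5.39, 15.2 and 18.4 FPKM in virgin islets and 4.4, 4.53, 4.72 and 10.2 FPKM at GD14.5. In both the highest GD14.5 library lay above 3 of the 5 virgin libraries. Group means were 11.6 ± 6.39 and 7.93 ± 3.47 FPKM for Airn and 9.87 ± 6.57 and 5.97 ± 2.85 FPKM for Snhg14 (SD, n = 5 and 4).

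Kcnq1ot1, the silencer of the Cdkn1c domain, was lower, at 1.30, 2.66, 3.52, 4.76 and 6.88 FPKM in virgin libraries and 1.60, 3.76, 2.13 and 3.56 FPKM at GD14.5. Peg3os, the shortest gene of the 5 at 865 bases, was at 0.39, 2.49, 1.23, 4.67 and 12.1 FPKM in virgin libraries and 0.49, 0.62, 0.73 and 2.69 FPKM at GD14.5. Both groups of Peg3os include values under 0.5 FPKM, and virgin 5 alone is above 10. Whether reads of Peg3 are among those of Peg3os is not known. Means were 3.82 ± 2.12 and 2.76 ± 1.06 FPKM for Kcnq1ot1 and 4.17 ± 4.70 and 1.13 ± 1.04 FPKM for Peg3os (SD, n = 5 and 4).

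FPKM is per transcript length, so the deposited values can be ordered. Poly(A) selection of the RNA and reads of overlapping genes may act on each name differently. The order need not be that of RNA amounts. Peg13 was above Airn in 9 of 9 libraries, by 1.54 to 3.87 times, and Snhg14 was above Kcnq1ot1 in 9 of 9, by 1.20 to 3.20 times. Airn and Snhg14 did not part in every library: Airn was higher in 8 of 9, with a median ratio of 1.22, and lower in GD14.5 replicate 1 at a ratio of 0.955. Kcnq1ot1 was above Peg3os in 8 of 9, with a median ratio of 2.86, and below it in virgin 5 at a ratio of 0.570.

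**Figure D1:**
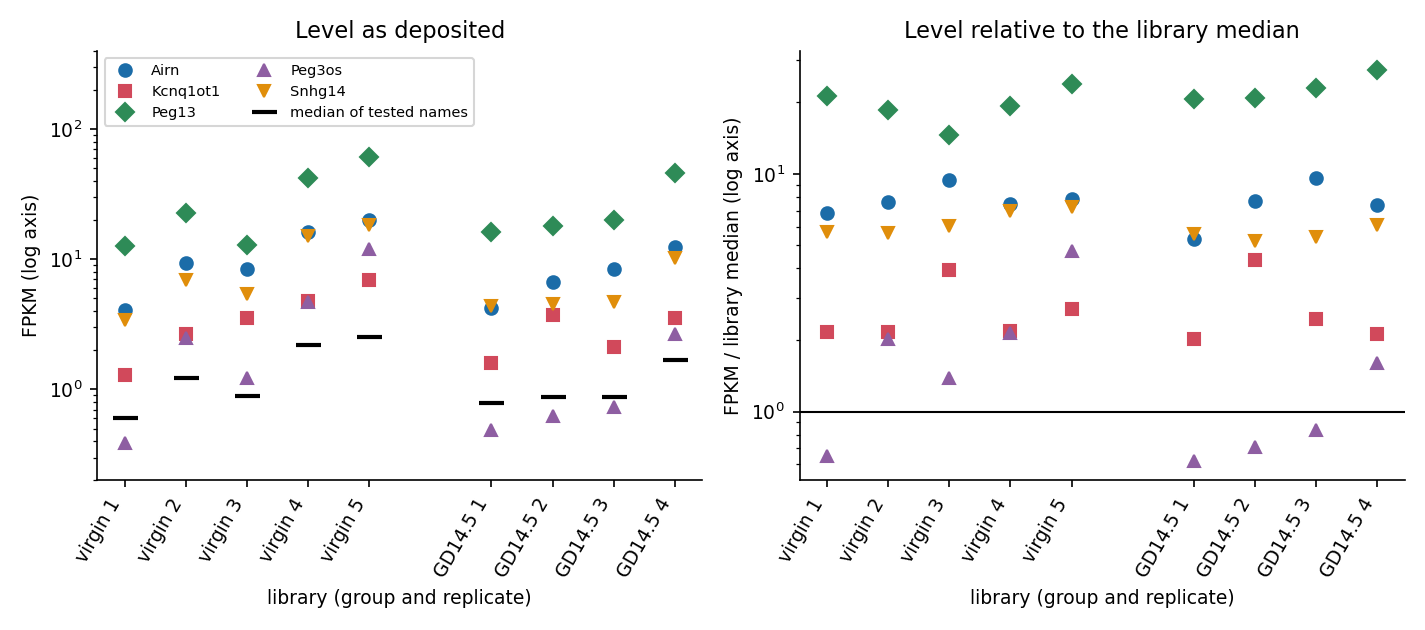
Level of each RNA in each library, as FPKM (left, log axis) and as FPKM divided by the library median (right, log axis); each point is 1 library and the black bars on the left are library medians. Peg13 is highest in all 9 libraries, while Peg3os runs from 0.620 to 4.75 library medians.

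Divided by the library median, the RNAs differed in how far they ranged. Snhg14 stayed between 5.21 and 7.26 library medians, a range of 1.39 times, although its FPKM ranged 5.40 times. Airn ranged 1.81 times on this scale, Peg13 1.88 times and Kcnq1ot1 2.13 times. Peg3os ranged 7.66 times, more than 94.7% of the 2270 tested names above 0 in every library, whose median was 2.13 times. The shares of these names with a smaller range were 50.2% for Kcnq1ot1, 37.1% for Peg13, 33.0% for Airn and 6.34% for Snhg14. As deposited, the FPKM of Peg3os ranged 30.9 times, against 4.23 times for the library median itself. The fold range of Peg3os was larger than that of 93.6% of tested names, whose median was 5.25 times. Its standard deviation within groups, 1.22 on the log2(FPKM + 0.5) scale as deposited and 0.71 after libraries were set to equal medians, exceeded that of 97.6% and 93.5% of names. On equal medians the standard deviations of Peg13, Kcnq1ot1, Airn and Snhg14 were 0.37, 0.37, 0.32 and 0.29, above those of 72.2%, 71.4%, 62.3% and 56.4% of names, whose median was 0.26. These shares differ from those of the ranges on library medians, which were plain ratios. Here 0.5 was added to FPKM before medians were made equal, which damps low names and leaves part of the scale in high ones. Whether Snhg14, Airn and Peg13 vary more than most names thus depends on the scale used. Pooled islets of a bulk library cannot show whether fewer cells carry an RNA or each cell carries less of it.

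None of the 5 RNAs passed the test between GD14.5 and virgin islets (limma on log2(FPKM + 0.5), Benjamini-Hochberg over 2377 names, threshold 0.05). Over all names 4 were called, all higher at GD14.5, which is 0.168% of the names tested, and 60 names (2.52%), none of them a member, had an unadjusted p under 0.05. All 5 differences were negative as deposited, and so were 86.7% of all tested names, whose median was −0.30 on the log2 scale. The groups overlapped for all 5 RNAs, while 0.589% of tested names had groups that did not.

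The difference was −0.43 ± 0.54 for Airn (SE; 95% interval −1.56 to 0.69; limma adjusted p = 0.817; exact permutation p = 0.413) and −0.52 ± 0.54 for Snhg14 (95% interval −1.64 to 0.61; limma adjusted p = 0.817; exact permutation p = 0.349). For Kcnq1ot1 it was −0.31 ± 0.47 (95% interval −1.28 to 0.65; limma adjusted p = 0.817; exact permutation p = 0.508). For Peg13 it was −0.13 ± 0.60 (95% interval −1.38 to 1.12; limma adjusted p = 0.922; exact permutation p = 0.889). These 4 values lie inside the bulk of all names, of which 13.6% were below Snhg14, 24.6% below Airn, 48.0% below Kcnq1ot1 and 77.7% below Peg13. Leaving out 1 library moved Airn between −0.74 and −0.18, Snhg14 between −0.81 and −0.24 and Kcnq1ot1 between −0.59 and −0.08. Peg13 turned to 0.18 without virgin 5, 0.06 without virgin 4 and 0.03 without GD14.5 replicate 1. The intervals hold differences of more than 1 on the log2 scale, so the test does not show that the levels were alike. The exact permutation tests were two-sided, and 5 against 4 libraries limit how low their p can be.

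Peg3os had the lowest difference of the 5, at −1.11 ± 0.57 (SE; 95% interval −2.30 to 0.07; limma adjusted p = 0.817; exact permutation p = 0.206), with 0.589% of all names below it. The value rests in part on virgin 5, without which it was −0.61, and it was −1.57 without virgin 1. By replicate number the differences at GD14.5 were 0.15, −1.42, −0.49 and −0.70 on the log2 scale for numbers 1 to 4. Without virgin 4, virgin 5 and GD14.5 replicate 4, the libraries that stood apart, it was −0.59 ± 0.37 (SE; limma adjusted p = 1.00).

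On equal library medians the difference of Peg3os was −0.83 ± 0.41 (SE; 95% interval −1.76 to 0.10; limma adjusted p = 0.615). Those of the others were −0.23 ± 0.20 for Snhg14, −0.15 ± 0.21 for Airn, −0.03 ± 0.23 for Kcnq1ot1 and 0.16 ± 0.25 for Peg13 (SE), where the sign of Peg13 turned. At this scale 23 names were called, 0.968% of those tested (0.926% higher and 0.0421% lower), and none of the 5 RNAs. With the replicate number as a block 26 names were called, 1.09% (0.968% higher and 0.126% lower), and again none of the 5. Peg3os was at −0.61 ± 0.24 there (SE; 95% interval −1.13 to −0.09; limma unadjusted p = 0.0246 and adjusted p = 0.424), the only 1 of the 5 with an unadjusted p under 0.05, as had 221 of all names (9.3%) in that fit. Virgin 5 has no partner, so the estimates with the block equal those without virgin 5 and are no separate support. Peg13 was at 0.18 ± 0.26 with the block, and at 0.29 ± 0.15 (SE; limma adjusted p = 0.418) with the block on equal medians, where 15 names, 0.631%, were called.

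**Figure D2:**
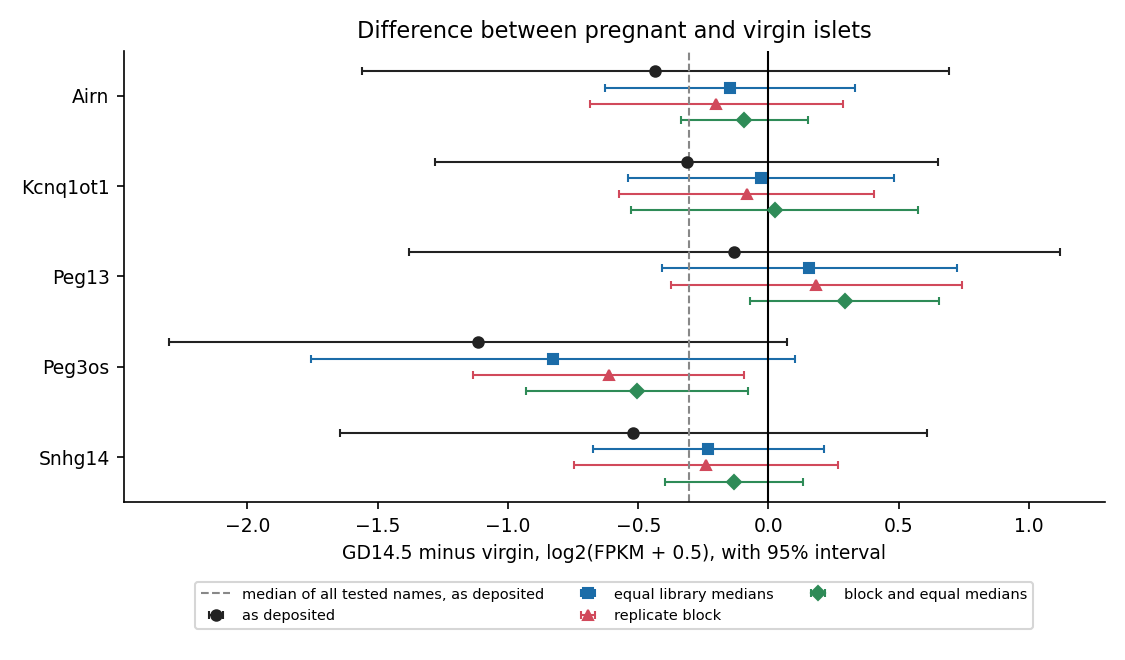
Difference between GD14.5 and virgin islets for each RNA on the log2(FPKM + 0.5) scale under 4 fits; points are limma estimates, bars 95% intervals, and the dashed line the median of all 2377 names as deposited, −0.30. Intervals as deposited all include 0, and those of Peg3os end below 0 only in the fits with the replicate block, where its adjusted p was 0.424 and 0.264.

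The sum over a name can hide shifts between its transcripts, so single transcripts were followed next. They carry no identifier and are numbered here by falling mean FPKM within a name. Snhg14 had 17 transcripts, of which 15 were above 0 in some library and 4 reached the mean of 0.5 FPKM. Airn had 8, with 5 tested, Kcnq1ot1 had 4, Peg13 had 2 and Peg3os had 1. In all, 12 of the 32 were tested, and 3 were at 0 throughout.

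Peg13 was in effect a single transcript, whose share of the summed FPKM was 98.7% to 99.6% in the 9 libraries. Airn was spread over several. Its first transcript held 34.4% to 46.5%, the second 25.4% to 34.0% and the third 10.6% to 16.5%. In 9 of 9 libraries the first transcript of Airn held the largest share, as the plot of shares by library shows.

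The first transcript of Snhg14 held 39.0%, 39.7%, 37.1%, 30.2% and 31.3% in virgin libraries 1 to 5 and 38.0%, 36.4%, 39.8% and 29.1% in GD14.5 libraries 1 to 4. The third transcript held 9.38%, 6.95%, 7.05%, 17.1% and 18.9% in virgin libraries and 6.36%, 4.19%, 5.72% and 18.9% at GD14.5. The 3 libraries with a high share of the third transcript and a low share of the first are virgin 4, virgin 5 and GD14.5 replicate 4, those with the highest library medians. In FPKM the third transcript ranged 18.3 times over the 9 libraries, from 0.19 to 3.48, while the first ranged 4.33 times. Whether the scale of a library plays a part in this split was not tested.

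Kcnq1ot1 was carried mainly by its first transcript, at 90.0%, 96.2%, 73.3%, 96.6% and 95.9% in virgin libraries and 92.5%, 55.1%, 94.8% and 96.6% at GD14.5. Its second transcript was at 0.84 FPKM in virgin 3 and 1.64 FPKM in GD14.5 replicate 2, 23.9% and 43.6% of the name, and listed at 0 in the other 7 libraries. By a looser count, 5.13% of the 4383 transcripts that reached 0.5 FPKM in some library were listed at 0 in 5 or more of the 9. How many were at 0 in 7, like this one, was not counted. Without this transcript the group means of Kcnq1ot1 were 3.66 ± 2.19 and 2.35 ± 0.842 FPKM (SD, n = 5 and 4), with a log2 difference of −0.42 ± 0.46 (SE; limma adjusted p = 0.817).

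**Figure D3:**
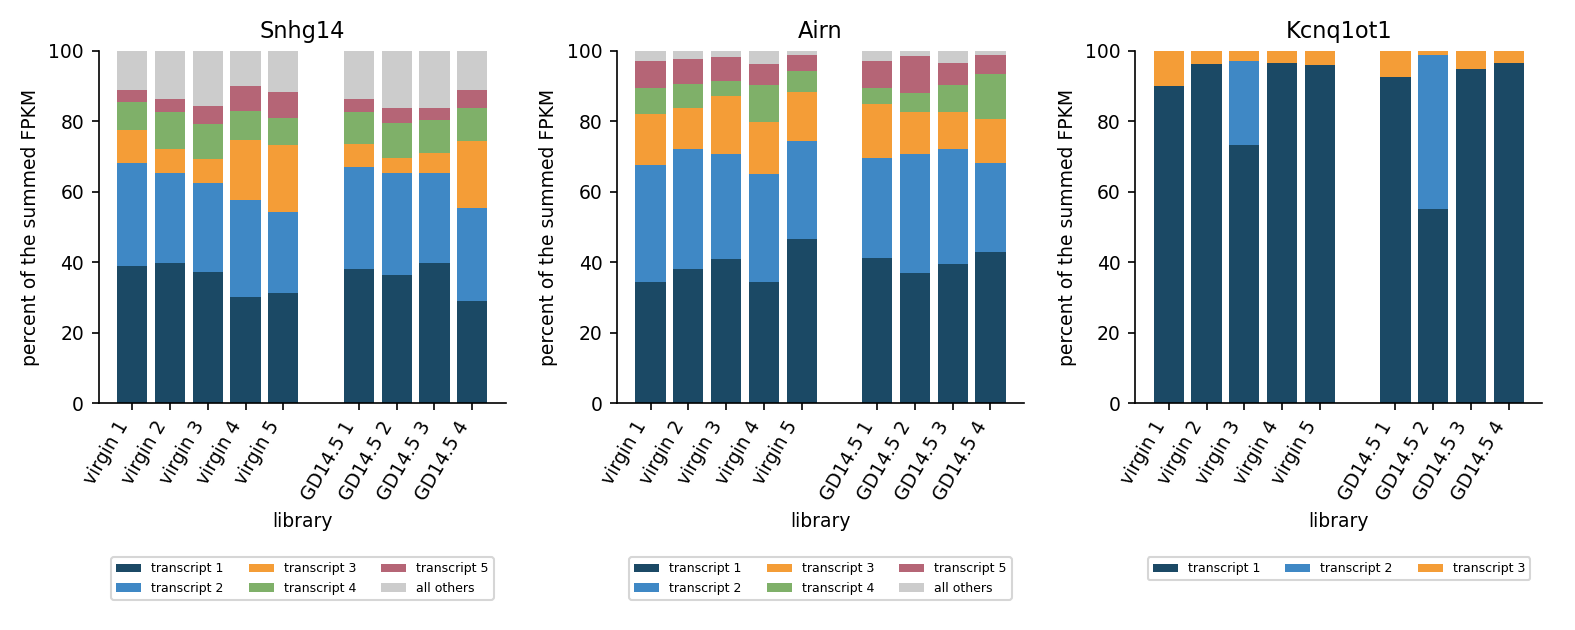
Percent of the summed FPKM of Snhg14, Airn and Kcnq1ot1 that each transcript takes, 1 bar per library, with transcripts numbered by falling mean FPKM. The share of the third transcript of Snhg14 widens to 17.1%, 18.9% and 18.9% in virgin 4, virgin 5 and GD14.5 replicate 4, and the second of Kcnq1ot1 appears in virgin 3 and GD14.5 replicate 2.

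No transcript of the 5 genes passed the test between the groups, either in level or in share. Of 2548 transcripts tested in level, 3 were called (0.118%), and 63 (2.47%) had an unadjusted p under 0.05, with 0 of the 12 of these genes among either. As deposited all 12 were below 0, as were 85.2% of all tested transcripts, and on equal library medians 9 of 12 were, against 54.8% of all. The first transcript of Airn was at −0.37 on the log2 scale, that of Kcnq1ot1 at −0.42, that of Snhg14 at −0.46 and the third of Snhg14 at −0.62 (limma adjusted p = 0.824 for each). Of 1612 shares tested, 2 were called (0.124%, with 0.062% higher and 0.062% lower), and 108 (6.7%) had an unadjusted p under 0.05, with 0 of the 11 of these genes among either. For the third transcript of Snhg14 the difference in share was −3.06 ± 4.01 percentage points (SE; 95% interval −12.4 to 6.28), and that of the second was 1.37 ± 1.37. For the first transcripts it was 1.20 ± 2.71 points in Airn and −5.67 ± 9.71 in Kcnq1ot1. With 1 library left out the third of Snhg14 lay between −6.44 and −1.31 points, the second between 0.60 and 2.10 and the first of Airn between 0.08 and 3.12. The share difference of Kcnq1ot1 turned to 4.23 points without GD14.5 replicate 2, in which its second transcript is highest.

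Over the 9 libraries the 5 RNAs varied together as deposited, with Pearson r of log2(FPKM + 0.5) from 0.757 for Kcnq1ot1 and Peg13 to 0.970 for Peg3os and Snhg14. All names of a library share its scale, which differed between libraries, so these values include that scale. Medians were made equal after 0.5 was added to FPKM, which moves low values more than high ones. Part of the scale therefore stays in names far from the library median. On equal library medians the pair of Peg3os and Snhg14 stayed at 0.922, Peg13 and Snhg14 were at 0.656, and Airn was at 0.643 with Peg3os and 0.610 with Snhg14. Peg13 and Peg3os were at 0.574, Airn and Kcnq1ot1 at 0.484 and Airn and Peg13 at 0.356. Kcnq1ot1 was at −0.169 with Peg13, 0.104 with Snhg14 and 0.168 with Peg3os, and without its second transcript at 0.181, 0.626 and 0.708. Meg3, a maternally expressed RNA, had values as high as most of these pairs, at 0.677 with Peg13, 0.635 with Airn, 0.590 with Peg3os and 0.544 with Snhg14, and 0.119 with Kcnq1ot1. Of the single transcripts of Snhg14, the first had an r of 0.830 with Peg3os, the third 0.746 and the fourth −0.663. Divided by the library median, Peg3os and Snhg14 were both highest in virgin 5 (4.75 and 7.26) and next in virgin 4 (2.13 and 6.95). These are among the libraries that stood apart in scale. How far library scale enters the r of 0.922 was not tested.

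The names most like each RNA on equal medians were picked as the highest of all other tested names, a choice that favours high values. The part of the library scale that stays on equal medians enters these values too. For Snhg14 they were Gm46901 (0.977), 5530601H04Rik (0.974) and Mbd2 (0.973), the name of a gene for a methyl-CpG binding protein, and 72 names had an r of at least 0.9. For Peg3os they were Gm52100 (0.967), Mbd2 (0.953) and Chic1 (0.950), with 32 names at or above 0.9. Peg13 was most like 2500004C02Rik (0.974), Gm5113 (0.969) and Ccdc6 (0.960), and Airn most like Adar (0.917), the RNA editing enzyme gene, Kmt5a (0.907), the gene of a histone H4 methyltransferase, and Gm15651 (0.906). For Kcnq1ot1 the highest were Gm33712 (0.878), Gm34225 (0.872) and Gm42232 (0.838), and 0 names reached 0.9.

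Neighbours within 300 kb of the 5 genes were nearly all outside the table or low. RefSeq lists 295 genes there, 48 of them coding; 13 had a line and 1 was tested. That was the noncoding R74862, 159 kb from Kcnq1ot1, with group means of 2.27 ± 1.23 and 1.36 ± 0.487 FPKM (SD, n = 5 and 4) and a log2 difference of −0.49 ± 0.41 (SE; limma adjusted p = 0.817). Ipw, a noncoding RNA inside the Snhg14 interval, was listed at 0 in all 9 libraries. Zim2 and Zim3, of the Peg3 domain, reached at most 0.05 and 0.26 FPKM in any library.

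Among other imprinted genes 8 names were tested, and 0 passed without the block, with it or on equal medians. The paternally expressed antisense RNA of the Gnas domain, Gnasas1, had group means of 1.53 ± 0.641 and 1.06 ± 0.267 FPKM (SD, n = 5 and 4), a log2 difference of −0.33 ± 0.37 (SE; limma adjusted p = 0.817). It was the only 1 tested of 14 paternally expressed noncoding RNAs listed besides the 5, of which 5 had a line. Hymai, at 0.510 ± 0.294 and 0.330 ± 0.0216 FPKM, Igf2os, at 0.07 FPKM or less, and Dio3os, at 0.09 or less, stayed below the minimum. Of 7 maternally expressed noncoding RNAs 3 were tested, Meg3, Rian and Mirg of the chromosome 12 domain, with log2 differences of −0.30, −0.37 and −0.43. H19, the maternally expressed RNA beside Igf2, was at 0.14 FPKM or less in every library, and Nctc1 at 0.08 or less.

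The coding names H13, Ppp1r9a, Zdbf2 and Impact of other imprinted domains had log2 differences from −0.58 to −0.22, and Plagl1, at 0.45 FPKM or less, was not tested. The list of 41 coding genes of the 5 domains had 0 tested members. Over the 8 names the median was −0.40, against −0.30 over all names. Of 18 factors that keep or read imprints 3 were tested and 0 passed, among them Dnmt3a, the gene of a de novo DNA methyltransferase, at −0.72 ± 0.51 (SE; limma adjusted p = 0.817), Yy1 at −0.12 and Suz12 at −0.09.

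**Figure D4:**
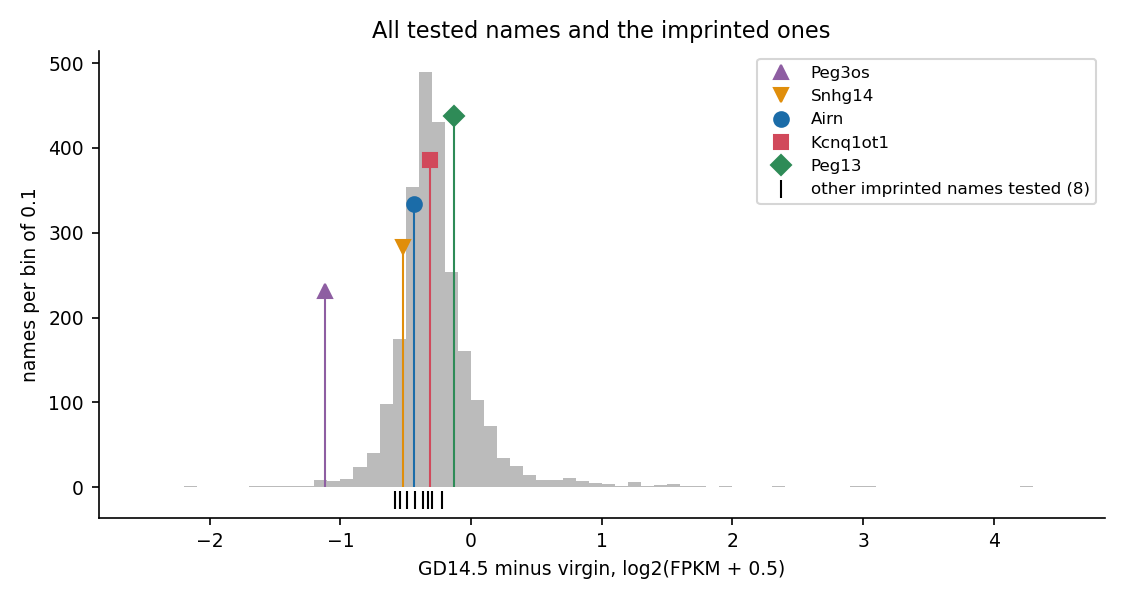
Distribution of the difference between GD14.5 and virgin islets over all 2377 tested names (grey bars, names per bin of 0.1 on the log2 scale), with the 5 RNAs as coloured markers at arbitrary height and 8 other imprinted names as ticks. Peg3os at −1.11 lies in the lower tail, and the others lie between −0.58 and −0.13.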

How the data were processed

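RNA of islets of virgin and GD14.5 female mice was sequenced after poly(A) selection, per the labels' protocols, in 5 and 4 libraries. The authors deposited FPKM per transcript, rounded to 2 decimals, with a gene name and no transcript identifier. The submitters' processing notes name the build GRCm38.p6. No aligner, quantifier, annotation or strand setting is named in the sources used here. FPKM keep no read counts, so the depth and its precision are unknown. Of 26375 lines, 480 that carry the suffix of a copy on another assembly sequence were left out, among them 4 of Airn with at most 0.28 FPKM in sum. FPKM were summed by name; 10705 of 10706 names matched a RefSeq symbol.

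Names with a mean of at least 0.5 FPKM were compared on log2(FPKM + 0.5), a scale that understates changes of low names, in R 4.3.3 by limma 3.58.1 (eBayes after lmFit, variance trend on, two-sided, Benjamini-Hochberg over all names, threshold 0.05). Transcripts were fitted likewise, and transcript shares in percent without the trend. Exact permutation tests used SciPy 1.17.1. The fits were also run on simulated data, drawn as independent normal values. These had no shared library scale and no replicate effect, so that run does not test how the fits handle either. Alternatives were pseudocounts, filters, equal library medians or sums, the replicate block, added copies and leaving out libraries; those without the 3 libraries of highest summed FPKM and without a Kcnq1ot1 transcript were chosen after seeing the data. Library medians were made equal on the log2(FPKM + 0.5) scale, which leaves part of the library scale in names far from the median. The members and lists were chosen with earlier results of these data known. Named are the members, the listed genes with a line, tested neighbours within 300 kb and the 3 names most like each member.

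Replicate numbers are shared by the groups. The labels do not say what a shared number stands for, so the main fit has no pairs and the number entered only alternative fits as a block. After group means were removed, deviations of same-numbered libraries correlated at 0.49, 0.20, 0.28 and 0.59 as deposited. Libraries of different numbers ranged from −0.55, for virgin 1 and GD14.5 replicate 4, to 0.49, for virgin 5 and GD14.5 replicate 4. Virgin 3 with GD14.5 replicate 2 was at 0.25 and virgin 2 with GD14.5 replicate 1 at 0.23. These values do not settle whether the numbers mark pairs.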

Additional observations from a re-analysis of the deposited data

Results flagged for a closer look

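Of 32 sets of values, each the level of 1 of the 5 RNAs or the share of 1 of their transcripts in 1 group, 4 had their highest or lowest library set far off from the remaining ones (Dixon's 95% critical value). About 1.6 such sets would arise by chance if all values were normally distributed. Shares are bounded and levels carry the library scale, so the 4 are not read as an excess. Snhg14 in GD14.5 replicate 4 was at 3.42 on the log2(FPKM + 0.5) scale, above 2.29 to 2.38 in the other 3 GD14.5 libraries. The library median was 1.68 FPKM in this library and 0.79 to 0.87 in those 3. Divided by it, Snhg14 stood at 6.10 against 5.21 to 5.57. The third transcript of Snhg14 held 18.9% of its name in that same library, above 4.19% to 6.36% in the others. The first transcript of Kcnq1ot1 held 73.3% in virgin 3, below 90.0% to 96.6% in the other virgin libraries, and 55.1% in GD14.5 replicate 2, below 92.5% to 96.6%. In these libraries the second Kcnq1ot1 transcript was at 0.84 and 1.64 FPKM.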

How the results depend on the processing

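None of the 5 RNAs was called in any of 22 alternative fits, none of their transcripts in 19 and none of their shares in 14. The differences of Airn, Snhg14 and Peg3os stayed below 0 in all 22, with those of Peg3os from −1.57 to −0.51. The difference of Peg13 turned to 0.16 on equal library medians, 0.15 on equal sums, 0.18 with the replicate block, 0.29 with the block on equal medians, 0.21 without the 3 libraries of highest summed FPKM and 0.25 without them on equal medians; leaving out 1 library gave −0.46 to 0.18. That of Kcnq1ot1 turned to 0.025 with the block on equal medians, 0.014 without those 3 libraries and 0.056 without them on equal medians. The first transcript of Airn turned to 0.014 with the block on equal medians, and the share of the first Kcnq1ot1 transcript gave −9.95 to 4.23 points with 1 library left out. The cause was not tested.

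Over all names, 4 were called as deposited, 23 on equal medians, 31 on equal sums, 26 with the block, 15 with the block on equal medians, 14 without the 3 libraries and 13 without them on equal medians, and 3 to 5 with 1 library left out. For transcripts these counts were 3, 22, 29, 29, 18, 23 and 13, and 3 to 5. For shares 2 were called, 25 with no filter on low values, 0 with the block, 6 as log2 ratios, and 2 to 6 with 1 library left out. The block changed no call of the 5 RNAs. Depth is unknown, so values near 0 carry no counting limit.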
